A study of Homo sapiens with 6 samples.

Results

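The DNA replication machinery is represented here by 41 genes that were chosen by name and by known function. The rule that picks them uses no measured value, though the list was drawn up with earlier results of these data known. They cover origin recognition (6 genes), licensing (3), the MCM helicase (6), helicase activation (6), primase and polymerase alpha (4), polymerases delta and epsilon (5), the clamp and its loader (6), Okazaki fragment joining (2) and deoxynucleotide supply (3). All 41 names were found once among the 57820 genes of the count tables, and all 41 passed the filter on low counts, which kept 19599 genes. The lowest count of any of the 41 genes in any sample was 1644.

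RNA-seq was done on AID-DIvA cells, an established line made from the osteosarcoma line U2OS. These cells carry the restriction enzyme AsiSI, which is brought into the nucleus by 4-hydroxytamoxifen and removed through an auxin-inducible degron. The comparison sets 3 knockout samples (ARID1A-KO) against 3 WT samples, each group with replicates named 3, 4 and 5. Both genotypes carry the AsiSI system and all 6 samples were untreated. ARID1A, the DNA-binding subunit of the BAF (SWI/SNF) chromatin remodeler, was knocked out with Cas9 and separate guide RNAs, and clones were then isolated. Whether the guides were used together is not stated. The number of clones behind the 3 knockout samples is not given in the sources used here, and nothing says that the samples came from separate knockouts. The p-values therefore measure the spread between these samples only, and a property of a clone and an effect of ARID1A loss cannot be told apart.

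Replication starts when the origin recognition complex (ORC), CDC6 and CDT1 load the MCM2-7 ring onto DNA during G1, while geminin (GMNN) holds CDT1 back afterwards. CDC45 and the GINS complex then turn the loaded ring into an active helicase, primase and polymerase alpha lay down primers, and polymerases delta and epsilon extend them with the help of the PCNA clamp, which RFC places on DNA. FEN1 and LIG1 join the fragments of the lagging strand, and ribonucleotide reductase and thymidylate synthase supply deoxynucleotides. Many of these genes are transcribed mainly around the entry into S phase, under E2F factors. In bulk RNA a smaller share of cells in S phase and less RNA per cell cannot be told apart.

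Promoters were searched for 3 short motifs in windows of 300 bases, from 250 before to 50 after the start of each gene, in the RefSeq table for GRCh38.p14. An entry was present for 37 of the 41 genes, without GINS4, MCM4, MCM5 and POLD3. Of these 37, 18 (48.6%) held an E2F word (TTTCCCGC, TTTCGCGC, TTTGCCGC or TTTGGCGC on either strand), against 3.33% of all 27305 promoters in the table. A CCAAT box was found in 21 of the 37 (56.8%), against 35.7% of all promoters. The CHR word TTTGAA, known from genes of G2 and mitosis, was found in 1 (2.7%, in RRM1), against 15.4% of all promoters. An E2F word was present for 3 of the 4 genes that were higher in ARID1A-KO cells, for 5 of the 11 that were lower and for 10 of the 22 matched genes that passed no threshold. The first entry was used for each gene symbol, and all promoters were included whatever their expression or base composition. Whether base composition has a part in these shares was not tested. A match is a description of the sequence and shows no binding.

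The 250 bases before the start are printed 5′ to 3′ on the strand of the gene for 4 genes, with matches to the E2F or CCAAT words on either strand in capitals. ORC6 and POLD1 are shown as the genes with the largest rise and the largest fall. MCM3 and MCM6, chosen after their values were seen, are shown as subunits of the same ring that moved in opposite directions. The positions are in GRCh38.p14.
ORC6, chr16:46689409-46689658, plus strand: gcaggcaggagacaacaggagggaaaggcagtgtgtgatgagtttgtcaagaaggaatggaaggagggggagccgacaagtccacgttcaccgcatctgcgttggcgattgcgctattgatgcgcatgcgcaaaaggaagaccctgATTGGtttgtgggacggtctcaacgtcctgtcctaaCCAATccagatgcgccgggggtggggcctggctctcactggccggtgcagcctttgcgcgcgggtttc
POLD1, chr19:50384073-50384322, plus strand: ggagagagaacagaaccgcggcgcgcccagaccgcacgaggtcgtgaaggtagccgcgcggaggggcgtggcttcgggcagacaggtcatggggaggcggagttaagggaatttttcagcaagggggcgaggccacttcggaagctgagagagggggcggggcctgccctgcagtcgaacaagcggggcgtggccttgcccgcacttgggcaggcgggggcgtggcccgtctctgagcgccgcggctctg
MCM3, chr6:52284743-52284992, minus strand: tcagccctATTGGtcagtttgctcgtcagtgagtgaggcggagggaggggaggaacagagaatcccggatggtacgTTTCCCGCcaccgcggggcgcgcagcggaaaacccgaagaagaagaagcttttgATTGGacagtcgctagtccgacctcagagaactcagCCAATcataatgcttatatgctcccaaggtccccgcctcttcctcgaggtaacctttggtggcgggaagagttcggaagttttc
MCM6, chr2:135876444-135876693, minus strand: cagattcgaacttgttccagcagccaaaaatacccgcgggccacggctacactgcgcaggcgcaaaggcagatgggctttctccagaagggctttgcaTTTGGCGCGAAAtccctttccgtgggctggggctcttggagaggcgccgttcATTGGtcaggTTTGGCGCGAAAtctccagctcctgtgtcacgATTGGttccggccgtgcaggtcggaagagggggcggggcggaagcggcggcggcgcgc

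The ORC6 promoter held 2 CCAAT boxes and no E2F word, and the POLD1 promoter held none of the 3 motifs. MCM3 held 3 CCAAT boxes and an E2F word whose first base lies 174 bases before the start, and a further E2F word crosses the start and is not printed in full. MCM6 held 2 CCAAT boxes and 4 E2F matches, which overlap in pairs, so that each of the 2 capital runs TTTGGCGCGAAA holds one match on each strand.

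ARID1A was at 166 to 178 CPM (counts scaled to library size by TMM) in the WT samples and at 25.1 to 27.5 CPM in the ARID1A-KO samples, with a log2 fold change of −2.74 and an SE of 0.07 (adjusted p = 9.66e-08, edgeR's quasi-likelihood test). The labels of all 6 samples fitted this difference. Total counts on the gene strand ranged from 54512105 to 84088708 per sample. Of 10 mesenchymal and bone markers, 6 (VIM, COL1A1, SPARC, RUNX2, ALPL and SPP1) were at or above 1 CPM in every sample, while COL1A2, SP7, BGLAP and IBSP were below 0.3 CPM on average in both genotypes. Their summed level was 3433 to 3855 CPM in WT and 4654 to 5234 CPM in ARID1A-KO samples, with VIM higher in the knockout (log2 fold change 0.84) and SPARC (−0.89), ALPL (−2.45), SPP1 (−1.45) and COL1A1 (−0.47) lower in the same test. Markers of epithelial, blood and endothelial cells (8 genes found) summed to 7.33 to 10.4 CPM in WT and 8.19 to 8.64 CPM in ARID1A-KO samples, with only EPCAM at or above 1 CPM in every sample and HBB at 0 in all. PECAM1 was not analysed here. Whether these shifts have a part in the results on replication genes was not tested.

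Of the 41 replication genes, 4 rose and 11 fell in the knockout against WT at an adjusted p under 0.05 by edgeR's quasi-likelihood test. This is 36.6% of them, against 36.2% of all genes tested (7099 genes). The genes called higher make up 9.76% of the 41, against 17.8% of all genes, and those called lower 26.8%, against 18.4%. The share called is thus close to that over all genes tested. The changes were small. The log2 fold changes ran from −0.49 to 0.48, none reached 0.5 in size, and the largest rise was 1.39-fold. Their median was −0.08, with 15 above and 26 below 0, where the median over all genes was 0.01. The median size, regardless of sign, was 0.155 on the log2 scale, against 0.266 over all genes and 0.156 over the 5843 genes with a mean level at or above that of the lowest replication gene, of which 37.7% were called. Of these 5843 genes, 15.6% were called higher and 22.0% lower, with a median log2 fold change of −0.02. The lean of the 41 genes to lower calls is thus smaller beside genes of like level than beside all genes.

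The CPM of the genotypes did not overlap for 27 of the 41 genes (65.9%), with the knockout above WT for 9 and below it for 18, against 49.5% of all genes tested. Of these 27, 12 did not pass the adjusted threshold. The median coefficient of variation over the genes was 5.06% between WT samples and 3.57% between ARID1A-KO samples, and the median standard error of a log2 fold change was 0.06. For 22 genes the whole 95% interval (computed from the SE with a normal quantile) lay within 0.3 of 0. The 95% intervals here and below are narrower than the quasi-likelihood test implies. For GINS1 the interval ran from −0.244 to −0.006 and left out 0, while the unadjusted p was 0.068 (edgeR's quasi-likelihood test). Wider intervals could only lower the count of 22.

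**Figure D1:**
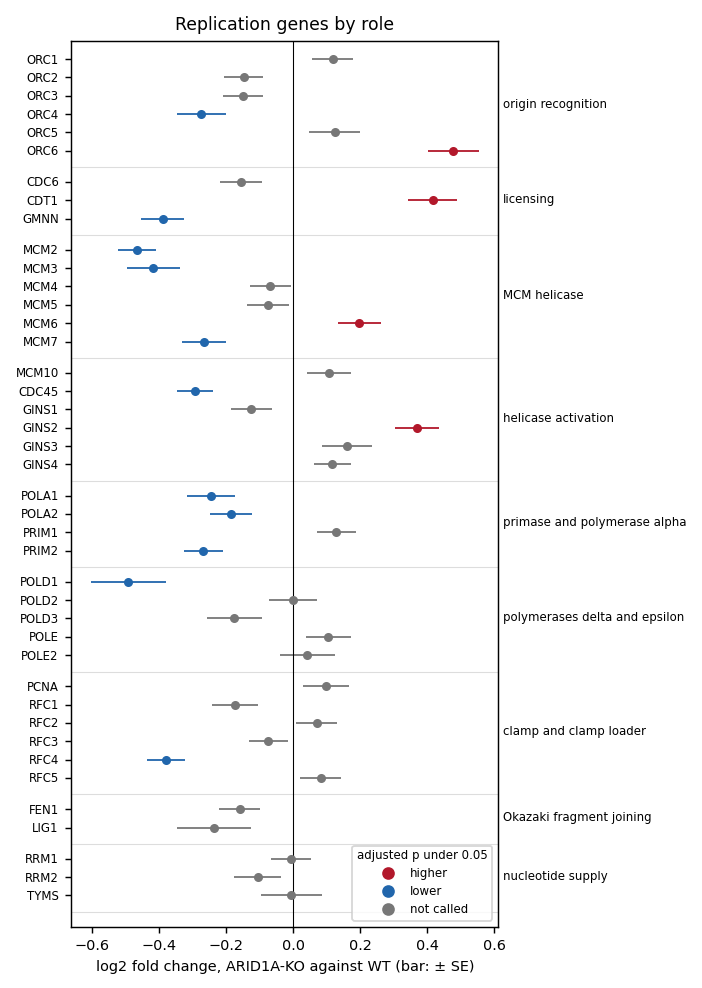
Log2 fold change of the 41 replication genes between ARID1A-KO and WT cells (n = 3 each) on the horizontal axis, with bars of ± SE, ordered by role. Red points are called higher (4), blue points lower (11) and grey points neither (26), and both colours occur among origin recognition, licensing, MCM and helicase activation genes.

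Summed over the 41 genes, the level was 6060, 5776 and 6133 CPM in WT replicates 3, 4 and 5, and 5695, 5611 and 5574 CPM in ARID1A-KO replicates 3, 4 and 5. Every knockout sample was below every WT sample, by a margin that is small beside the spread of the WT samples. As a share of the unscaled counts the genotypes overlapped, at 0.566% to 0.604% in WT and 0.566% to 0.583% in ARID1A-KO cells. No sample stood apart over the 41 genes. WT replicate 3 was the highest WT sample for 19 genes and WT replicate 4 the lowest for 22, and ARID1A-KO replicate 3 was the highest knockout sample for 23 genes and replicate 5 the lowest for 21, with median deviations from the group mean of at most 0.038 on the log2 scale. Over all but the lowest genes tested, ARID1A-KO replicates 3 and 4 were closest, with a mean chi-square of the counts of 7.2 per gene. The other pairs within a genotype had 18.3 to 33.9, and the reason was not tested.

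Among the origin recognition genes, 1 rose, 1 fell and 4 did not pass the test. ORC6, the subunit that joins the complex most loosely and binds DNA, was at 72.6, 76.8 and 63.5 CPM in WT and at 102, 97.6 and 96.9 CPM in ARID1A-KO replicates 3, 4 and 5. All knockout samples were above all WT samples, and the log2 fold change was 0.48 (SE 0.08, adjusted p = 0.0012, edgeR). In GRCh37, ORC6 (ENSG00000091651.4) spans chromosome 16 from 46723555 to 46732306, plus strand. ORC4, an ATPase subunit of the core of the complex, was at 45.6, 38.7 and 42.2 CPM in WT and at 34.7, 35.1 and 34.7 CPM in ARID1A-KO cells. The groups did not overlap, and the log2 fold change was −0.28 (SE 0.07, adjusted p = 0.0161, edgeR). This call was lost when WT replicate 3 (adjusted p = 0.0556), ARID1A-KO replicate 3 (0.0551) or ARID1A-KO replicate 4 (0.0571) was left out, with an offset on gene length (0.145) and with an offset on GC content (0.132). ORC1, the ATPase that is lost from chromatin after licensing, was at 49.6 to 53.9 CPM in WT and 54.5 to 57.1 CPM in ARID1A-KO cells, with a log2 fold change of 0.12 (adjusted p = 0.168, edgeR). The values of ORC5 (0.12) overlapped between genotypes, and those of ORC2 and ORC3 (both −0.15) did not, with adjusted p of 0.0777 for ORC2 and 0.083 for ORC3.

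The licensing factor and its inhibitor moved in opposite directions. CDT1, which brings MCM2-7 to the origin, was at 39.3, 37.1 and 38.7 CPM in WT and at 46.8, 54.8 and 52.1 CPM in ARID1A-KO replicates 3, 4 and 5. The groups did not overlap, and the log2 fold change was 0.42 (SE 0.07, adjusted p = 0.00204, edgeR). With an offset on GC content it fell to 0.12 (adjusted p = 0.213), so the call on CDT1 depends on that offset. GMNN, whose protein geminin binds CDT1 and blocks relicensing, was at 42.5, 40.5 and 39.4 CPM in WT and at 31.8, 29.9 and 31.8 CPM in ARID1A-KO cells. Its knockout samples were all below its WT samples, and the log2 fold change was −0.39 (SE 0.06, adjusted p = 0.00149, edgeR), and it was called under every alternative tried at the 0.05 threshold. CDT1 (ENSG00000167513.4) lies on chromosome 16 from 88869621 to 88875666 and GMNN (ENSG00000112312.5) on chromosome 6 from 24775159 to 24786327 in GRCh37, both on the plus strand. CDC6, the ATPase that works with CDT1, was at 240 to 253 CPM in WT and 209 to 233 CPM in ARID1A-KO cells, without overlap, and did not pass the test (log2 fold change −0.16, adjusted p = 0.0809, edgeR).

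Of the 6 subunits of the MCM2-7 ring, 3 fell, 1 rose and 2 did not pass the test. MCM2, which closes the ring with MCM5 and also binds histones, was at 218, 207 and 218 CPM in WT and at 152, 160 and 153 CPM in ARID1A-KO replicates 3, 4 and 5. MCM3 was at 382, 321 and 385 CPM in WT and at 273, 264 and 278 CPM in ARID1A-KO cells. For both genes the lowest WT sample was replicate 4 and it was still above every knockout sample. The log2 fold change was −0.47 for MCM2 (SE 0.06, adjusted p = 0.000262, edgeR) and −0.42 for MCM3 (SE 0.08, adjusted p = 0.00297, edgeR), and both were called in every fit with 1 sample left out.

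MCM7, a further subunit of the ring, was at 374, 360 and 411 CPM in WT and at 317, 313 and 321 CPM in ARID1A-KO cells. The groups did not overlap and the log2 fold change was −0.27 (adjusted p = 0.0117, edgeR), which passed the threshold in all leave-one-out fits but the one without ARID1A-KO replicate 4 (0.058). MCM6 was at 139, 126 and 136 CPM in WT and at 159, 155 and 146 CPM in ARID1A-KO cells, with a log2 fold change of 0.20 (adjusted p = 0.0373, edgeR). The knockout samples of MCM6 were all above WT, but the call is fragile. It was lost without WT replicate 3 (adjusted p = 0.0608), WT replicate 4 (0.118), WT replicate 5 (0.0683), ARID1A-KO replicate 3 (0.124) or ARID1A-KO replicate 4 (0.12), without a filter (0.0571) and with an offset on length (0.0865). MCM4 and MCM5 had log2 fold changes of −0.07 and −0.08, with 95% intervals from −0.19 to 0.05 and from −0.20 to 0.05. The summed level of the 6 subunits was 1666, 1557 and 1697 CPM in WT and 1434, 1428 and 1392 CPM in ARID1A-KO replicates 3, 4 and 5, without overlap. In GRCh37, MCM2 (ENSG00000073111.9) lies on chromosome 3 from 127317066 to 127341276 and MCM3 (ENSG00000112118.13) on chromosome 6 from 52128807 to 52149679.

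**Figure D2:**
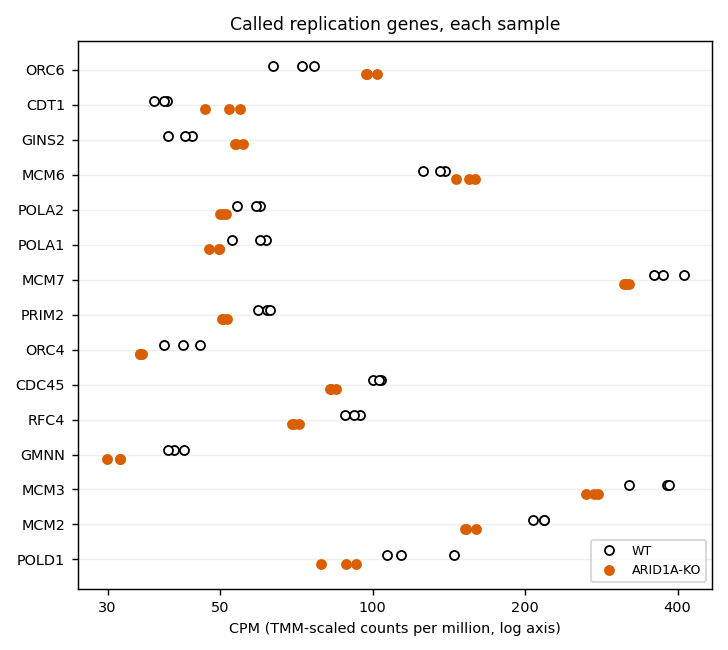
CPM of each sample (horizontal log axis) for the 15 replication genes that passed the test, with WT as open circles and ARID1A-KO as orange circles, 3 samples each. ORC6, CDT1, GINS2 and MCM6 at the top have the knockout samples to the right, the other 11 genes have them to the left, and in no row do the genotypes overlap.

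Among the genes of helicase activation, 1 rose, 1 fell and 4 did not pass the test. CDC45, which joins the MCM ring to GINS in the active helicase, was at 104, 100 and 103 CPM in WT and at 82.8, 84.8 and 82.5 CPM in ARID1A-KO replicates 3, 4 and 5. The groups were far apart beside their spread, and the log2 fold change was −0.29 (SE 0.05, adjusted p = 0.00266, edgeR). GINS2, a subunit of the GINS complex of 4 proteins, was at 44.1, 39.4 and 42.6 CPM in WT and at 55.5, 53.8 and 53.5 CPM in ARID1A-KO cells. All knockout samples of GINS2 were above WT, and the log2 fold change was 0.37 (SE 0.06, adjusted p = 0.00202, edgeR). The other GINS subunits did not pass the test, with log2 fold changes of −0.13 for GINS1, 0.16 for GINS3 and 0.12 for GINS4, although the genotypes did not overlap for any of them. GINS3 passed it without WT replicate 4 (0.23, adjusted p = 0.0412) and in counts taken without regard to strand (0.21, adjusted p = 0.0478). Counts taken without regard to strand came to 70.8% of the gene-strand count for GINS4. Part of the reads of that gene, which may lie over another gene, thus went uncounted where strand was ignored. MCM10, an adaptor of helicase activation, overlapped between genotypes (log2 fold change 0.11). CDC45 (ENSG00000093009.5) lies on chromosome 22 from 19466982 to 19508135 and GINS2 (ENSG00000131153.4) on chromosome 16 from 85709804 to 85723679 in GRCh37.

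Of the 4 genes of primase and polymerase alpha, 3 fell and 1 did not pass the test. PRIM2, the large primase subunit, was at 59.4, 61.8 and 62.9 CPM in WT and at 51.7, 50.8 and 50.4 CPM in ARID1A-KO replicates 3, 4 and 5, without overlap (log2 fold change −0.27, adjusted p = 0.00557, edgeR). It was called in every fit with 1 sample left out, and lost its call with an offset on GC content (−0.15, adjusted p = 0.119). POLA1, the catalytic subunit of polymerase alpha, had a log2 fold change of −0.25 (adjusted p = 0.0251), and POLA2, its accessory subunit, of −0.19 (adjusted p = 0.0445, both edgeR). Each lost its call in 5 of the 6 fits with 1 sample left out. POLA1 was not called without WT replicate 3 (adjusted p = 0.0825), WT replicate 5 (0.0745), ARID1A-KO replicate 3 (0.0619), ARID1A-KO replicate 4 (0.0705) or ARID1A-KO replicate 5 (0.0626). POLA2 was not called without WT replicate 4 (0.122), WT replicate 5 (0.104), ARID1A-KO replicate 3 (0.119), ARID1A-KO replicate 4 (0.154) or ARID1A-KO replicate 5 (0.0652). PRIM1, the small subunit that makes the primer, was at 76 to 79.1 CPM in WT and at 82 to 88.1 CPM in ARID1A-KO cells, in the opposite direction to its partner and short of the threshold (log2 fold change 0.13, adjusted p = 0.107, edgeR).

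The largest fall of all 41 genes was that of POLD1, the catalytic subunit of polymerase delta, which copies the lagging strand. It was at 114, 107 and 145 CPM in WT and at 79, 88.7 and 92.9 CPM in ARID1A-KO replicates 3, 4 and 5. The groups did not overlap, but POLD1 varied more between samples than the other called genes, and its log2 fold change of −0.49 had an SE of 0.11 (adjusted p = 0.00782, edgeR). In GRCh37, POLD1 (ENSG00000062822.8) spans chromosome 19 from 50887461 to 50921273, plus strand. The 4 other genes of polymerases delta and epsilon did not pass the test and overlapped between genotypes, with log2 fold changes of 0.00 for POLD2, −0.18 for POLD3, 0.10 for POLE and 0.04 for POLE2. For POLD2, the small accessory subunit that binds POLD1, the 95% interval ran from −0.14 to 0.14. POLE, the catalytic subunit for the leading strand, passed the threshold only with an offset on gene length (0.34, adjusted p = 0.00348).

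In the clamp and clamp loader group 1 of 6 genes fell. RFC4, a small ATPase subunit of the loader, was at 94.4, 91.8 and 88.4 CPM in WT and at 69.9, 69.3 and 71.7 CPM in ARID1A-KO replicates 3, 4 and 5. The groups were separate, and the log2 fold change was −0.38 (SE 0.06, adjusted p = 0.000788, edgeR). In GRCh37, RFC4 (ENSG00000163918.6) spans chromosome 3 from 186507669 to 186524847, minus strand. Its partners in the loader had log2 fold changes of −0.17 (RFC1), 0.07 (RFC2), −0.07 (RFC3) and 0.08 (RFC5), none of them called. PCNA, the sliding clamp, was at 228 to 255 CPM in WT and 245 to 274 CPM in ARID1A-KO cells. These ranges overlapped, and the log2 fold change was 0.10 with a 95% interval from −0.04 to 0.23.

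Neither of the 2 genes of Okazaki fragment joining passed the test. FEN1, the flap nuclease, was at 237 to 254 CPM in WT and 210 to 228 CPM in ARID1A-KO cells without overlap (log2 fold change −0.16, adjusted p = 0.0704, edgeR). LIG1, the ligase of the lagging strand, was at 142, 127 and 165 CPM in WT and at 110, 119 and 139 CPM in ARID1A-KO replicates 3, 4 and 5. These overlap, and the log2 fold change of −0.24 did not pass (adjusted p = 0.127, edgeR), though LIG1 did pass without WT replicate 4 (−0.32, adjusted p = 0.0449) and in the fit that left out ARID1A-KO replicate 5 (−0.34, adjusted p = 0.0376). It also passed without a filter on low counts (−0.24, adjusted p = 0.0098), with the replicate number as a block (−0.24, adjusted p = 0.026) and with an offset on GC content (−0.35, adjusted p = 0.0186). In the fit without a filter the SE was 0.077 for LIG1, against 0.111 in the main fit. For MCM2 it was 0.077 against 0.057, so the spread of single genes counted for less without the filter.

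The nucleotide supply genes showed the least difference. RRM2, the small subunit of ribonucleotide reductase that is made in S phase, was at 447 to 493 CPM in WT and 404 to 453 CPM in ARID1A-KO cells (log2 fold change −0.11, 95% interval −0.24 to 0.03). RRM1, the large subunit, had a log2 fold change of −0.01 (95% interval −0.12 to 0.11) and TYMS, thymidylate synthase, of −0.01 (−0.18 to 0.17). All 3 genes overlapped between genotypes. Counts of TYMS taken without regard to strand came to 55.7% of those on its own strand. Part of its reads, which may lie over another gene, thus went uncounted where strand was ignored, and the values given here are from its own strand.

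Between-gene levels were compared in TPM, a unit that accounts for exonic length as well as depth. The median over the 41 genes was 76.3 TPM in WT and 75 TPM in ARID1A-KO cells. TYMS, at 574 ± 64.4 TPM (SD, n = 3), and PCNA, at 541 ± 35.6 TPM, were the highest in WT cells, and their ranges overlapped with each other. ORC4 was the lowest at 15.4 ± 1.40 TPM in WT and 12.6 ± 0.456 TPM in ARID1A-KO cells, and its WT range did not reach that of the next gene, GINS3. Of the 40 pairs of neighbours in the WT order, 27 had overlapping ranges, so most of the fine order is within the spread. Within each role, the highest and the lowest gene differed more from each other than any gene differed between genotypes. Within the MCM ring the range in WT cells was from 80.9 TPM (MCM5) to 327 TPM (MCM3), a ratio of 4.04, which was 3.19 in ARID1A-KO cells. Within ORC the ratio of ORC6 to ORC4, the highest and the lowest gene, was 3.52 in WT and 5.94 in ARID1A-KO cells. In the order of all 41 genes from the highest TPM, POLD1 moved from rank 19 to 25, GMNN from 25 to 32 and MCM2 from 11 to 14, whereas ORC6 moved from 26 to 21 and CDT1 from 34 to 28.

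**Figure D3:**
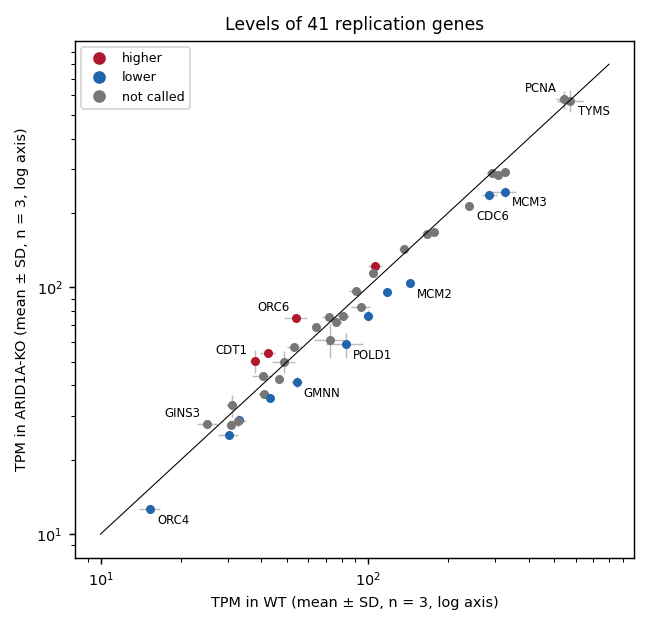
TPM of the 41 replication genes in WT cells (horizontal, log axis) and in ARID1A-KO cells (vertical, log axis), as means with bars of ± SD (n = 3), with the line of equal levels. The genes span from ORC4 at 15.4 TPM to TYMS at 574 TPM in WT cells and stay near the line, with ORC6 and CDT1 above it and POLD1, MCM2, MCM3 and GMNN below it.

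Ratios of TPM within a sample show how the balance between partners differed. The 8 pairs were chosen after their values were seen, so the ratios are given as a description and were not tested. The ratio of CDT1 to its inhibitor GMNN was 0.687, 0.68 and 0.728 in WT and 1.09, 1.36 and 1.22 in ARID1A-KO replicates 3, 4 and 5. CDT1 was thus the lower of the pair in every WT sample and the higher in every knockout sample. As given above, the log2 fold change of CDT1 fell to 0.12 with an offset on GC content. No such offset enters these ratios. The ratio of MCM6 to MCM2, which sit in 1 ring in equal number, was 0.742 ± 0.017 (SD, n = 3) in WT and 1.18 ± 0.058 in ARID1A-KO cells. Their order in TPM thus also turned. In CPM, which does not account for length, MCM6 was above MCM2 only in ARID1A-KO replicate 3 (159 against 152). The call on MCM6 was fragile, as given above. For PRIM1 against PRIM2, the partners within primase, the ratio was 2.43 ± 0.04 in WT and 3.2 ± 0.073 in ARID1A-KO cells. For POLD2 against POLD1 it was 3.57 ± 0.45 and 4.99 ± 0.65, with a knockout minimum of 4.31 above a WT maximum of 4.03. The remaining pairs (ORC6 to ORC4, MCM6 to MCM3, GINS2 to GINS1 and RFC2 to RFC4) also had higher ratios in all knockout samples than in all WT samples.

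**Figure D4:**
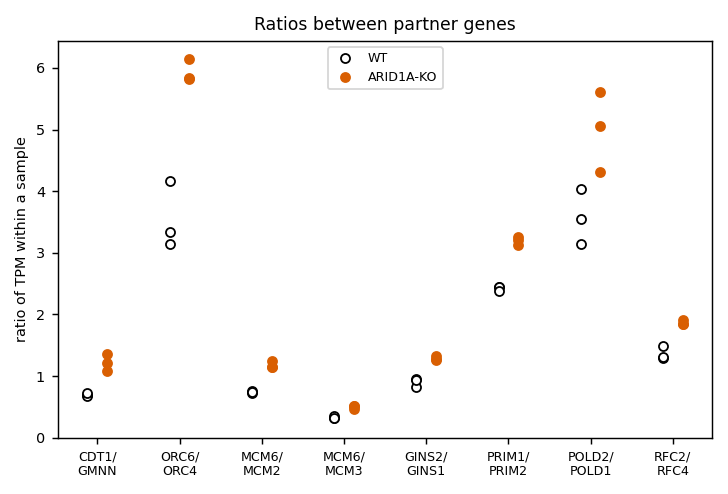
Ratio of TPM between partner genes within each sample (vertical axis) for 8 pairs chosen after their values were seen, with WT as open circles and ARID1A-KO as orange circles, 3 samples each. In all 8 pairs the knockout samples lie above the WT samples, and CDT1 to GMNN goes from below 1 to above 1.

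The rises were concentrated by position. ORC6, CDT1 and GINS2, 3 of the 4 genes that rose, lie on chromosome 16, and the remaining replication gene there, GINS3, had a log2 fold change of 0.16. Other genes tested with a start within 5 Mb also tended to be higher. The median log2 fold change of these neighbours was 0.32 around ORC6 (32 genes, 21 called higher and 2 lower), 0.40 around CDT1 (88 genes, 46 higher and 7 lower), 0.34 around GINS2 (107 genes, 49 higher and 12 lower) and 0.32 around GINS3 (65 genes, 39 higher and 6 lower). The log2 fold change of CDT1 exceeded that median by 0.02, that of GINS2 by 0.03 and that of ORC6 by 0.16. On these windows CDT1 and GINS2 thus moved as much as the genes around them, and the part of such regional shifts in the calls was not tested.

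Some of the falls shared their direction with the region too. Around MCM2 on chromosome 3 the neighbour median was −0.41 (84 genes, 2 called higher and 44 lower), and around RFC4 on the same chromosome it was −0.23 (74 genes, 5 higher and 34 lower). On chromosome 6 all 4 replication genes (GMNN, MCM3, ORC3 and PRIM2) had negative log2 fold changes, and the neighbour median was −0.25 around both MCM3 and PRIM2. GMNN differed from this, with a neighbour median of 0.00 over 104 genes. For 6 of the 11 genes that fell the neighbour median was above 0, and the gap was widest for POLD1, whose own −0.49 stood against 0.22 over 301 genes. CDC45 (−0.29 against 0.11) and MCM7 (−0.27 against 0.10) also fell in windows with a positive median, and MCM6 rose (0.20) in one with a median of −0.09. Over the 41 genes the correlation with the neighbour median was 0.577 (Pearson) and 0.345 (Spearman), given as a description across genes, several of which share a region. The genes that fell lie on 8 chromosomes of the 19 that hold replication genes.

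**Figure D5:**
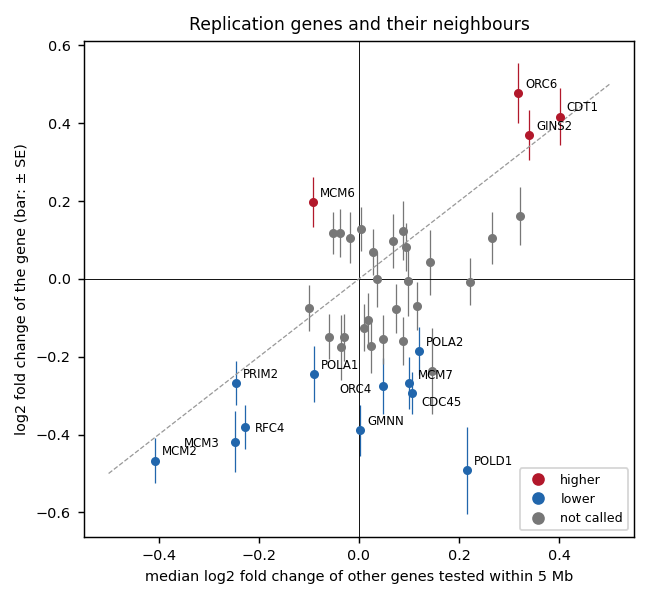
Log2 fold change of each of the 41 replication genes (vertical axis, bars of ± SE) against the median log2 fold change of the other genes tested within 5 Mb (horizontal axis), with the dashed line where both are equal. ORC6, CDT1 and GINS2 lie at the upper right near that line, MCM2 at the lower left near it, and POLD1 lies far below it at a neighbour median of 0.22.

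Further genes of the pathway, from lists written with earlier results on these data known, showed changes in both directions. Of 31 other replication genes, 9 were higher and 4 lower (41.9% called, against 36.2% of all genes), with a median log2 fold change of 0.00. The largest rises were those of POLD4 (0.87, the smallest subunit of polymerase delta), RPA2 (0.51) and WDHD1 (0.49, which couples polymerase alpha to the helicase), and the largest falls those of TOPBP1 (−0.36, which acts in origin firing), RPA1 (−0.31) and RNASEH2A (−0.29, which removes ribonucleotides). RPA1 and RPA2 are subunits of the same protein that coats single-stranded DNA. RPA1 was at 140 to 141 CPM in WT and 108 to 118 CPM in ARID1A-KO cells, while RPA2 was at 58.9 to 64 CPM and 83.9 to 91.5 CPM. Neither overlapped between genotypes, and they moved in opposite directions. POLD4 was low, at 2.83 to 3.54 CPM in WT and 5.06 to 7.02 CPM in ARID1A-KO cells. The median over neighbours within 5 Mb was 0.11 for POLD4, 0.06 for RPA2 and 0.25 for WDHD1. It was −0.44 for TOPBP1, 0.10 for RPA1 and −0.31 for RNASEH2A. TOPBP1 and RNASEH2A thus fell no more than the genes around them, while the other named genes moved further than theirs.

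Of 18 other genes of nucleotide synthesis, 2 were higher (CTPS1, 0.66, and MTHFD1, 0.28) and 3 lower, among them UMPS (−0.38) and PAICS (−0.27), which is 27.8% called against 36.2% of all genes, with a median log2 fold change of 0.00. Of 12 genes that rebuild chromatin behind the fork, none was higher and 4 were lower, CHAF1A (−0.67), UHRF1 (−0.57) and ASF1B (−0.43) by most, so 33.3% were called against 36.2% of all genes, and 33.3% were lower against 18.4%. Among the 5843 genes at or above the level of the lowest replication gene, 22.0% were lower. All 4 lie on chromosome 19, and their changes are not set beside those of the genes around them. The neighbour median on that chromosome differed by place, at −0.31 around RNASEH2A and 0.22 around POLD1. The part of regional shifts in these 4 calls was not tested. CHAF1A, a subunit of the histone chaperone CAF-1 that is brought to forks by PCNA, was at 169 to 176 CPM in WT and 107 to 109 CPM in ARID1A-KO cells.

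The genes that control entry into S phase and licensing had the largest share of calls among the pathway lists. Of 26, 2 were higher and 12 lower (53.8% called, against 36.2% of all genes), with a median log2 fold change of −0.17. E2F1, an activator of replication genes, was at 36.1 to 38.6 CPM in WT and 55.1 to 59 CPM in ARID1A-KO cells (0.60), and E2F4, a repressor in resting cells, rose as well (0.40). TFDP1 and TFDP2, the partners with which E2F factors bind DNA, fell (−0.72 and −0.70), and so did CCNE2, a cyclin of S-phase entry (−0.66). TFDP1 was at 274 to 314 CPM in WT and 175 to 180 CPM in ARID1A-KO cells. These changes are not set beside those of the genes around them, and the part of regional shifts was not tested. Of 20 genes of G2 and mitosis, 3 were higher (KIF11, 0.24, TPX2, 0.20, and UBE2C, 0.18) and 4 lower, among them KIF20A (−0.36), MAD2L1 (−0.29) and CCNA2 (−0.28), with a median of −0.14. The 35% called, 15% higher and 20% lower, is close to the 36.2%, 17.8% and 18.4% over all genes. The summed level of the 20 genes was 5463 to 5941 CPM in WT and 5107 to 5785 CPM in ARID1A-KO samples, which overlap. The number of G2 and mitosis genes called moved with single samples. It was 0 to 2 higher with 1 sample left out, being 0 without WT replicate 4, ARID1A-KO replicate 3 or replicate 5 of the knockout and 1 without WT replicate 3 or ARID1A-KO replicate 4, and for the lower genes it was 2 without ARID1A-KO replicate 4 and 9 when replicate 5 of the knockout was dropped.

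Of the 15 calls on replication genes, 8 (ORC6, GMNN, MCM2, MCM3, CDC45, GINS2, POLD1 and RFC4) held under every alternative tried at the same threshold, and 10, those 8 with CDT1 and PRIM2, held in every fit with 1 sample left out. Without ARID1A-KO replicate 4, 7 of the 41 genes were called lower in place of 11.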

How the data were processed

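RNA was measured by paired-end RNA-seq in untreated AID-DIvA cells, with 3 samples for each genotype (WT and ARID1A-KO). The library kit is described as one for total RNA, whereas the molecule is labelled as polyA RNA. The authors used STAR within the Roddy workflow for alignment to hg19/GRCh37, counted reads by gene with featureCounts and deposited these counts as they were. TPM values were also deposited, and the column scaled over all genes of the table was used. Deposited FPKM values were not used. Versions of these tools are not given in the sources used here. Reverse-stranded counts, of 54512105 to 84088708 per sample, were the main measure, and counting error is small at this depth.

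The members and lists were chosen with earlier results of these data known. Counts were filtered with filterByExpr, scaled by TMM and compared with edgeR 4.0.16 (quasi-likelihood test, R 4.3.3) over all 6 samples without covariates. p-values were adjusted by Benjamini-Hochberg over all 19599 genes tested, and genes with an adjusted p under 0.05 were called. No member reached a log2 fold change of 0.5, so by the naming rule the 10 called members with the largest changes are given in full, with at most 3 rises and 3 falls for each other list. Sample values in CPM given for other members were chosen after the values were seen. Alternatives were counts without regard to strand, RLE scaling, the replicate number as a block, DESeq2 1.42.0, no filter, a minimum of 10 counts in every sample, a loess offset on exonic length (span 0.3), an adjusted p under 0.01 and each sample left out. An offset on GC content with the same span was added once the data had been seen and used values present for 97% of genes tested and all 41 members. Neighbours are other genes tested with a start within 5 Mb. PCLAF is named KIAA0101 in the tables, and it, CHTF8 and RBL1 were matched by identifier. Promoters came from RefSeq (GRCh38.p14), in another build than the counts, and were matched by symbol. The edgeR fit, alone, with the replicate block and with the length offset, and DESeq2 were tested on simulated data. These data held no trend with length or GC content, and the GC offset was not tested on them. The values of 1 further gene of the nucleotide synthesis list are not reported here.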

Additional observations from a re-analysis of the deposited data

How the results depend on the processing

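At an adjusted p under 0.01, 4414 genes were called in all, and among the replication genes 7 were lower. At that threshold, 2 of the other replication genes were lower, and of the G2 and mitosis genes 0 were higher and 2 lower. With 1 sample left out, 5285 to 7050 genes were called in all, 3 to 4 replication genes were higher and 7 to 11 lower, 8 to 9 other replication genes were higher and 3 to 5 lower, and 0 to 2 genes of G2 and mitosis were higher and 2 to 9 lower. The median log2 fold change of the replication genes then ran from −0.108 to −0.061, ARID1A from −2.784 to −2.717, and the median WT level from 74.27 to 77.89 TPM. With the GC offset, 7 replication genes and 5 genes of G2 and mitosis were higher, and the median over the replication genes was −0.011. LIG1, FEN1, PCNA, MCM10, ORC5 and PRIM1 gained a call with it, while ORC4, POLA1, PRIM2 and CDT1 lost theirs. Of the genes of G2 and mitosis, 1 was higher without a filter and 1 with the length offset. The causes were not tested.

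Among the 41 replication genes, the signs that turned were those of 6 genes without a call. With the GC offset GINS1 was at 0.007, RFC3 at 0.048, RRM1 at 0.131 and TYMS at 0.006, with the length offset POLE2 was at −0.006, and without regard to strand POLD2 was at 0.001. With 1 sample left out, POLD2 ran from −0.052 to 0.049, POLE2 from −0.015 to 0.106, RRM1 from −0.038 to 0.029 and TYMS from −0.093 to 0.037. With the replicate block, 4 replication genes were higher and 11 lower, with POLA2 lost and LIG1 gained, and 7477 genes were called in all. The deviations of same-numbered samples correlated at −0.177, 0.268 and 0.18, so the numbers are not taken to pair samples. The median shift of all genes was at most 0.029 under any scaling or offset tried.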
